A study of Mus musculus with 6 samples.

Results

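The GATA family of transcription factors and their FOG cofactors were followed in MA-10 cells, a line from a mouse Leydig cell tumour that makes steroids. The members were the 8 genes Gata1 to Gata6, Zfpm1 and Zfpm2, chosen by gene symbol, and they were read by 9 of the 35557 probe sets on the array. The siRNA MEF2 group (3 samples) had small interfering RNA that targets MEF2A/2D, and the siRNA control group (3 samples) had a scrambled sequence, in each case for 48 h. Each sample was hybridised to 1 Affymetrix array. The question is how GATA and FOG genes read when MEF2A and MEF2D are targeted in this single tumour line. Both groups share the line and a medium with horse serum. The labels do not say whether the samples of a group came from separate cultures, so each p-value rests on sample-to-sample spread that could be purely technical.

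GATA factors are zinc finger proteins that bind DNA at the letters GATA, and different members serve different tissues. GATA4 and GATA6 are made in somatic cells of the gonad, where GATA4 is needed for the gonad to form and acts on promoters of steroid-synthesis genes, while GATA1, GATA2 and GATA3 are best known from blood cells. The FOG proteins ("friend of GATA", from the genes Zfpm1 and Zfpm2) do not bind these sites themselves but dock onto a GATA factor and recruit corepressors. In heart muscle cells GATA4 is known to bind MEF2 proteins and to act with them on shared promoters.

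Values are log2 RMA signals (background-corrected, normalized array brightness), as deposited. A gene was called where limma's two-sided test, adjusted by Benjamini-Hochberg over 22091 genes, gave an adjusted p under 0.05; differences are siRNA MEF2 minus siRNA control with limma's standard error (SE). Arrays of one group correlated at 0.997 to 0.999 across genes and arrays of different groups at 0.995 to 0.996. Both targeted genes fell. Mef2a lay between 10.78 and 10.80 on the control arrays and at 9.80, 10.12 and 10.10 under siRNA MEF2. Mef2d lay between 11.22 and 11.31 and at 10.60, 10.84 and 10.92, so the groups overlapped for neither gene. The means fell 1.72-fold for Mef2a and 1.38-fold for Mef2d, and the arrays do not measure MEF2 protein. Mef2c, not targeted and chosen after its values were seen, had means of 10.25 in control and 10.16 in siRNA MEF2 (limma adjusted p = 0.308). Of the 7 measured Leydig cell markers, 5 lay above the 95th percentile of the negative controls on all arrays (Cyp11a1, Cyp17a1, Hsd3b6, Lhcgr and Nr5a1).

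Of the GATA and FOG genes, Gata4 alone stood above the 95th percentile of the negative control probe sets on every array. The 5222 probe sets that the deposited table marks as negative controls had wide signals, with a 95th percentile of 9.99 to 10.42 and a median of 7.16 to 7.53 per array, so the share of them that a member exceeds is a position and not a detection limit. Signals of different probe sets depend on their own probes and do not rank the genes by RNA amount. Gata4 exceeded 97.2% to 98.7% of the negative controls. Gata6, the close relative of Gata4, exceeded 93.0% to 95.5% of them and passed their 95th percentile on 1 of 6 arrays, siRNA MEF2 replicate 1. That array had the lowest 95th percentile (9.99), and Gata6 itself read higher on siRNA MEF2 replicate 3 (10.13 against 10.11). Zfpm1, which encodes FOG1, the partner of GATA1 in red cell and platelet precursors, exceeded 87.5% to 93.0%. Gata1, the regulator of red cell genes that is also known from mouse Sertoli cells, exceeded 78.7% to 80.9% in the control samples and 65.5% to 72.9% in the siRNA MEF2 samples. The negative controls also differed between arrays, with a 75th percentile of 8.35 to 8.45 in control and 8.32 to 8.67 in siRNA MEF2. The shift in position is thus not a measure of the change in Gata1 signal alone.

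The remaining members lay in the body of the negative controls. Gata5, known from heart and gut epithelium, exceeded 53.2% to 63.8% of them, and its second probe set 52.7% to 65.1%. Gata2, which blood stem cells need, exceeded 49.7% to 59.0% and was above their median on 5 of 6 arrays. Gata3, the regulator of T helper cells, exceeded 35.6% to 39.0%. Zfpm2, which encodes FOG2, the GATA4 partner of heart and gonad, exceeded 30.1% to 36.6%. Gata3 and Zfpm2 were thus below the negative control median on all 6 arrays, and taking that median as the reference in place of the 95th percentile put 5 of 8 members above it on every array (Gata1, Gata4, Gata5, Gata6 and Zfpm1).

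**Figure D1:**
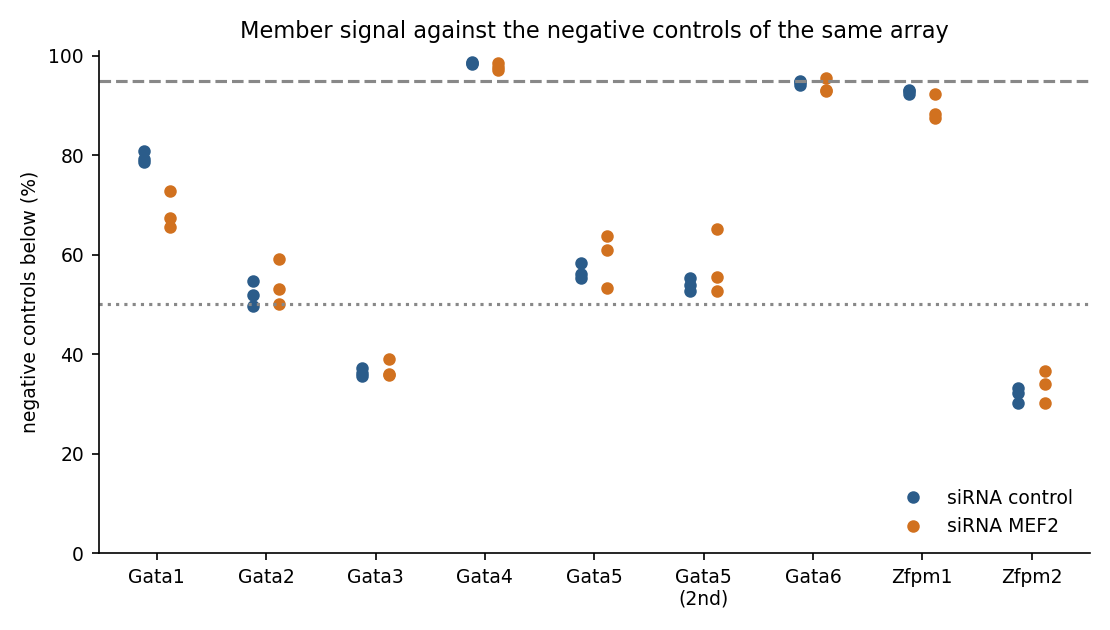
The share of negative control probe sets (y axis, %) whose signal was below that of each GATA or FOG probe set (x axis) on the same array, with 1 point per array, siRNA control in blue and siRNA MEF2 in orange; the dashed line marks 95% and the dotted line 50%. Gata4 lies above the dashed line on all arrays, Gata6 around it with 1 array above, Zfpm1 under it, and Gata3 and Zfpm2 below the dotted line.

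Of the 8 members 2 were called, Gata1 and Zfpm1, both lower in siRNA MEF2, and 0 were called higher (2 higher and 3 lower at an unadjusted p under 0.05). Over all 22091 genes limma called 20.7%, with 11.7% lower and 9.04% higher. That split was 1997 genes higher and 2582 lower, and after median centring 825 higher and 3599 lower. The median difference was 0.077 over the 8 members and 0.039 over all genes. Over the 5222 negative control probe sets it was 0.068, with a 5th percentile of -0.37 and a 95th of 0.43. Among the members only the difference of Gata1 lay outside that range. The groups did not overlap for 5 members, 3 lower and 2 higher, against 40.8% of all genes (18.0% lower, 22.8% higher). Dim genes were called higher more often and bright genes lower, so the difference of each member is given beside the median of the 2209 genes in its signal decile. In deciles 3, 5, 6, 8 and 10, which hold the members, the share called higher was 11.4%, 16.6%, 13.1%, 4.66% and 4.3%, and the share called lower 1.22%, 3.67%, 13.0%, 26.1% and 22.7%.

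Gata1 changed most among the members. Its control values were 8.61, 8.74 and 8.63, and its siRNA MEF2 values 8.22, 8.17 and 8.20. The lowest control sample was 0.39 above the highest siRNA MEF2 sample, and the samples of a group lay close together. The mean fell from 8.66 ± 0.071 (SD, n = 3) to 8.20 ± 0.028 (SD, n = 3), by 0.46 on the log2 scale (SE 0.058, 95% interval from -0.59 to -0.34), or 1.38-fold (limma adjusted p = 0.000339). The genes of its decile had a median difference of 0.033, and Gata1 ranked 51 among them from the most negative difference. The call held in all 16 processing alternatives, with differences from -0.51 to -0.42 and limma adjusted p from 9.14e-05 to 0.00305. The series matrix, counted among them, holds the same values as the main fit and could not differ. Of the targeted genes, Mef2d fell by 0.46 (SE 0.08) and Mef2a fell by 0.78 (SE 0.08). Of the siRNA MEF2 arrays, replicate 1 had the lowest Mef2a and Mef2d signals and the highest Gata1 signal. The Gata1 values on these arrays had an SD of only 0.028, and a relation over 3 arrays was not tested.

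The promoter of Gata1 is shown because it is the member that was called in all 16 alternatives, and that of Zfpm1 because it was the other called member. RefSeq entries of the build GRCm38.p6 matched 5 of the 8 members (Gata1, Gata2, Gata3, Gata5 and Zfpm1, with 6 entries). The 250 bases before the start of Gata1 lie at chrX:7967911-7968160 on the minus strand, and those of Zfpm1 at chr8:122281891-122282140 on the plus strand. Capitals mark the letters GATA on either strand.
Gata1: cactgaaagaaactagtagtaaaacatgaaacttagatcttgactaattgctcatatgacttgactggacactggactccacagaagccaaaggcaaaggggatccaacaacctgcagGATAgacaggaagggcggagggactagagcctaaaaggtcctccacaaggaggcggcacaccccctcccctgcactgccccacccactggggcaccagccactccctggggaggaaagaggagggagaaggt
Zfpm1: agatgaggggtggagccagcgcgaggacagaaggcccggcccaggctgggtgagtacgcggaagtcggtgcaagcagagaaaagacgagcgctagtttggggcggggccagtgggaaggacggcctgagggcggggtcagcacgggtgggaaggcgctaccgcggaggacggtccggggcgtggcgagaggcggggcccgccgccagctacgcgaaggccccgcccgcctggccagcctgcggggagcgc
The window of Gata1 holds the letters GATA once, starting 132 bases before the start on the plus strand, and that of Zfpm1 holds none; 53.6% of 32851 RefSeq promoter windows of this length hold them. None of the 6 windows of the members holds the longer form, GATA with A or T before it and A or G after it, on either strand (26.5% of all windows do, and each such match contains the letters GATA). None holds the MEF2 consensus on either strand, against 2.92% of all windows. The G and C content was 54.0% in the window of Gata1 and 67.2% to 74.0% in the other 5.

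Zfpm1, the gene of the GATA1 cofactor, was the other member called. Control arrays gave 9.70, 9.71 and 9.70, and siRNA MEF2 arrays 9.59, 9.44 and 9.51. All 3 siRNA MEF2 samples were below the control samples, which differed by less than the siRNA MEF2 samples did among themselves. The mean fell from 9.70 ± 0.0097 (SD, n = 3) to 9.51 ± 0.077 (SD, n = 3), by 0.19 (SE 0.059, 95% interval from -0.32 to -0.063), or 1.14-fold (limma adjusted p = 0.0392). The median of its decile was -0.082, the share called lower there being 26.1%. Quantile normalization (difference -0.10, limma adjusted p = 0.253) and cyclic loess (-0.13, adjusted p = 0.131) each ended the call. So did leaving out any of the 3 control arrays or siRNA MEF2 replicate 2 or 3 (limma adjusted p from 0.0646 to 0.138), with the same direction throughout.

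Gata4, the gonadal member with the clearest signal over the negative controls, measured 11.09, 11.30 and 11.20 on control arrays against 11.04, 11.02 and 10.99 on siRNA MEF2 arrays. The groups did not overlap, by a gap of 0.050. The difference was -0.18 (SE 0.064, 95% interval from -0.32 to -0.042), with group means of 11.20 ± 0.10 and 11.02 ± 0.027 (SD, n = 3 each), and did not pass the test (limma adjusted p = 0.0625). Its decile had a median of -0.067 and 22.7% of genes called lower. Gata4 was called in 5 of 16 alternatives, among them median centring (difference -0.23, limma adjusted p = 0.0203). Leaving out siRNA control replicate 1 also gave a call (-0.23, adjusted p = 0.0407). It was farthest from a call after quantile normalization (-0.12, adjusted p = 0.227).

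Gata6 pointed the other way from Gata4, with control values of 9.86, 9.95 and 10.04 and siRNA MEF2 values of 10.11, 9.96 and 10.13. The ranges overlapped through siRNA MEF2 replicate 2. The difference was 0.12 (SE 0.068, 95% interval from -0.029 to 0.27; limma adjusted p = 0.222), against a decile median of -0.082. It was called in 0 of 16 alternatives (adjusted p from 0.0559 to 0.534). The size of the difference depended on the setting, with 0.067 with array weights, 0.072 without siRNA control replicate 1 and 0.20 after quantile normalization. Whether Gata4 and Gata6 differ in their response was not tested.

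Differences of the dimmer members Gata2, Gata3, Gata5 and Zfpm2 were positive, as were the medians of their deciles. Gata5 gave 7.53, 7.57 and 7.69 on control arrays and 7.77, 7.88 and 7.67 on siRNA MEF2 arrays. The ranges overlapped through siRNA MEF2 replicate 3, and the difference was 0.18 (SE 0.068, 95% interval from 0.031 to 0.33; limma adjusted p = 0.0792), where its decile had a median of 0.10. Its second probe set read 7.49, 7.52 and 7.45 against 7.83, 7.64 and 7.65, without overlap. In the fit over all 25521 named probe sets, which called 8.43% of them higher, that probe set was higher by 0.22 (SE 0.064) with a limma adjusted p of 0.0316, and the first was not called (adjusted p = 0.0839). The mean of both probe sets was called higher (difference 0.20, limma adjusted p = 0.0301). The first probe set was called with array weights (0.19, adjusted p = 0.0498) and once siRNA MEF2 replicate 3 was left out (0.23, adjusted p = 0.0415). The 2 probe sets of Gata5 thus agree in direction and differ in call.

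Gata2 gave 7.46, 7.45 and 7.33 on control arrays and 7.56, 7.55 and 7.54 on siRNA MEF2 arrays. These did not overlap, yet the difference of 0.14 (SE 0.058, 95% interval from 0.011 to 0.26) was not called (limma adjusted p = 0.109) and lay near its decile median of 0.10. Zfpm2 had 6.48, 6.37 and 6.47 against 6.49, 6.60 and 6.52, apart by 0.0077, with a difference of 0.10 (SE 0.060, 95% interval from -0.030 to 0.23; limma adjusted p = 0.241) at a decile median of 0.099. Gata3 had 6.68, 6.69 and 6.66 against 6.63, 6.70 and 6.87, with overlap and a difference of 0.053 (SE 0.067, 95% interval from -0.093 to 0.20; limma adjusted p = 0.585) at a decile median of 0.099. The highest Gata3 value came from siRNA MEF2 replicate 3, and without that array the difference was -0.017. After quantile normalization and cyclic loess Gata3 also turned, to -0.037 and -0.047, while the Zfpm2 difference shrank to 0.012 and 0.0026 and that of Gata2 to 0.059 and 0.057. None of Gata2, Gata3 and Zfpm2 was called in any of the 15 alternatives that tested it.

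**Figure D2:**
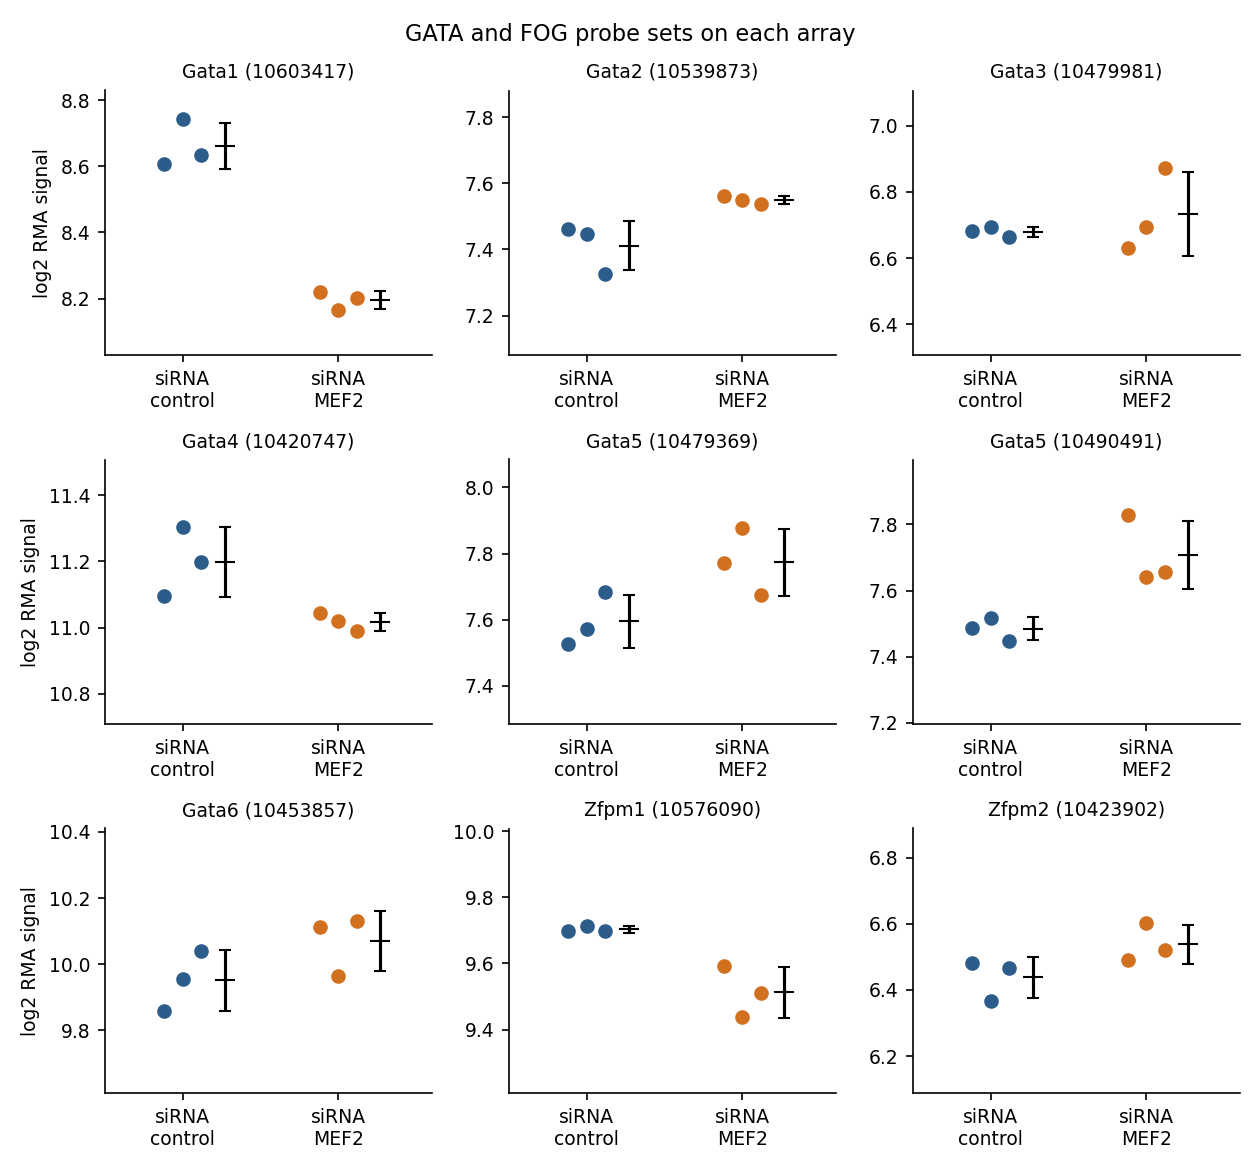
Log2 RMA signal (y axis) of each of the 9 GATA and FOG probe sets on the 3 siRNA control arrays (blue) and the 3 siRNA MEF2 arrays (orange); each point is 1 array, the black marks give the group mean ± SD, and every panel spans the same range of log2 units around its own mean. Gata1 shows the widest gap between groups (0.39), Zfpm1 and Gata4 smaller downward gaps, and Gata3 and Gata6 overlap.

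**Figure D3:**
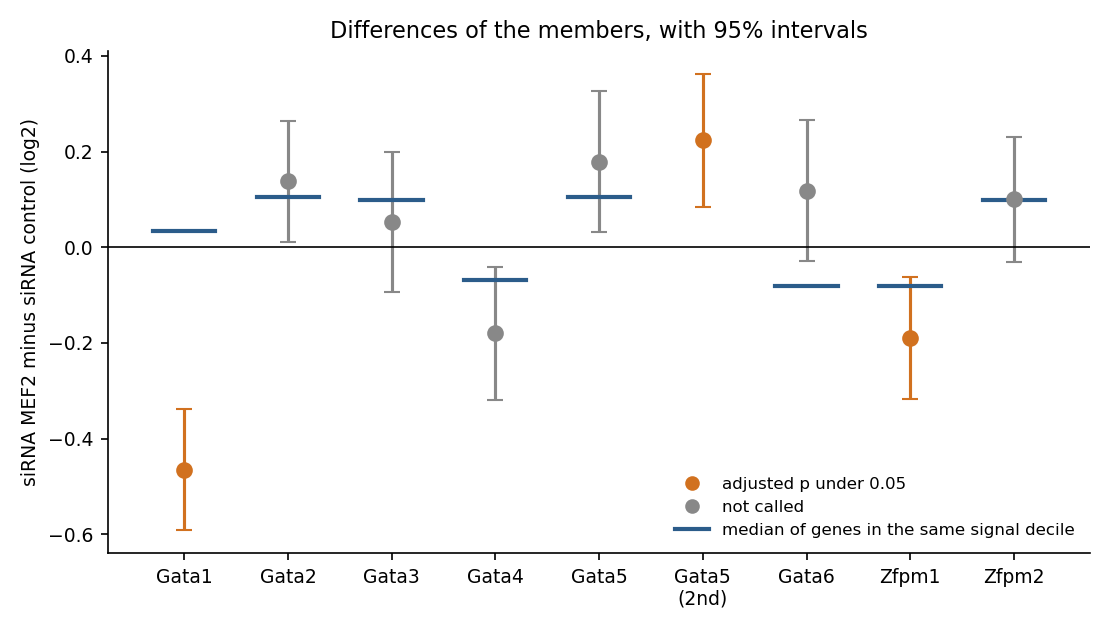
Difference in log2 signal, siRNA MEF2 minus siRNA control (y axis), for each probe set (x axis), with the 95% interval from limma as bars, called probe sets in orange and others in grey; blue lines give the median difference of all genes in the same signal decile, drawn for the probe set that stands for the gene. Gata1 lies 0.46 below zero while the median of its decile is 0.033, and Gata2 (0.14 against 0.10) and Zfpm2 (0.10 against 0.099) have values close to those of their deciles.

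The 3 genes whose centred values were nearest to those of Gata4 over the 6 arrays, out of 3671 genes within 1 log2 unit of its mean, were Prelid3b, Retreg2 and Tfdp1, with root mean square differences of 0.017, 0.018 and 0.021 on the log2 scale against a median of 0.11. The choice used all 6 arrays of both groups, so a difference and an adjusted p near those of Gata4 follow from it. Shared regulation was not tested. Prelid3b and Retreg2 both differed by -0.18 and were just called (limma adjusted p = 0.0469 and 0.0476), and Tfdp1 differed by -0.14 (adjusted p = 0.118). Prelid3b and Retreg2 each kept the call in 9 of 16 alternatives and lost it with quantile normalization (-0.10 for both, limma adjusted p = 0.237 and 0.239), cyclic loess, and leaving out any 1 array except siRNA control replicate 1. The genes nearest to Gata6, out of 5837, were Zfp764, Slirp and Palm3, with root mean square differences of 0.019, 0.025 and 0.027 against a median of 0.14.

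Genes that work with or like the GATA factors were taken from 6 lists, and their counts stand against the same 20.7% of all genes called. The list genes were not set beside their signal deciles, although bright genes were called lower more often than dim ones. Of 9 other genes with a GATA-type zinc finger, 0 were called by limma (1 higher and 0 lower at an unadjusted p under 0.05), with a median difference of -0.033 and a range from -0.097 for Gatad2a to 0.21 for Zglp1. Zglp1 is dim, exceeding 33.8% to 47.8% of the negative controls, below their median on all arrays. Of 14 measured genes of the corepressors that FOG proteins recruit, CtBP and the NuRD complex, 0 were called (1 higher and 3 lower at an unadjusted p under 0.05), with a median of -0.080. They ranged from -0.15 for Rbbp7, a histone-binding subunit (limma adjusted p = 0.0772), to 0.16 for Chd3, a remodelling ATPase (limma adjusted p = 0.0596). Rbbp7 was called lower in 2 of 16 alternatives, which were median centring (-0.20, limma adjusted p = 0.0217) and the robust fit with a variance trend (-0.15, limma adjusted p = 0.0380). Chd3 was called higher in 3 of 16 alternatives, among them quantile normalization (0.25, limma adjusted p = 0.0100) and cyclic loess (0.22, limma adjusted p = 0.0175).

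Of 16 partners and coactivators of GATA4, 3 were called lower and 2 higher, with a median of 0.030, and the targeted genes Mef2a and Mef2d were among those that fell. The nuclear receptor gene Nr5a1, whose product acts with GATA4 on gonadal promoters, rose by 0.20 and Nr2f2, the gene of COUP-TFII, fell by 0.19, calls that held in 10 and 9 of 16 alternatives. Nr2f2 exceeded 80.0% to 86.3% of the negative controls, with 0 arrays above their 95th percentile. Wt1, a gonadal regulator chosen after its values were seen, rose by 0.21 and was called in 6 of 15 alternatives. Wt1 is dim, exceeding 49.3% to 61.6% of the negative controls and their median on 5 of 6 arrays. Of 7 kinases that act on GATA4 or related signals, 2 were called lower and 0 higher (3 lower and 0 higher at an unadjusted p under 0.05), with a median of -0.12. Mapk3, the gene of ERK1, fell from a mean of 11.67 ± 0.025 (SD, n = 3) to 11.35 ± 0.092 (SD, n = 3), or 1.25-fold (limma adjusted p = 0.00402). Prkaca, a catalytic subunit of protein kinase A, fell 1.18-fold (limma adjusted p = 0.0129), a call lost after quantile normalization (adjusted p = 0.0655) and without siRNA control replicate 2 (adjusted p = 0.0567).

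Known GATA4 targets of gonadal cells split, with 4 of 15 measured genes lower, 3 higher and a median of 0.036. Star, whose product carries cholesterol into mitochondria, fell by 0.91, the 3-beta-hydroxysteroid dehydrogenase gene Hsd3b6 by 0.49, the 5-alpha reductase gene Srd5a1 by 0.42 and Hsd3b1 by 0.46 (limma adjusted p from 0.000284 to 0.0234). Hsd3b1 missed the threshold when siRNA control replicate 2 (limma adjusted p = 0.0886) or siRNA MEF2 replicate 1 (0.0643) was left out, and under robust estimation with a variance trend (0.0593). Lhcgr, the luteinizing hormone receptor gene, rose by 0.45, Cyp17a1 by 0.42 and Nr5a1 by 0.20. Hsd3b1 and Cyp17a1 were chosen after their values were seen. Star and Hsd3b1 are dim here, with no array above the 95th percentile of the negative controls.

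Among 10 genes of blood cells that act with GATA1 or GATA2, 1 was called, Lmo2, the bridging factor that joins GATA1 to its partners on DNA. Lmo2 gave 8.95, 9.04 and 8.62 on control arrays and 8.38, 8.47 and 8.38 on siRNA MEF2 arrays, without overlap. It fell by 0.46 (SE 0.09), or 1.37-fold (limma adjusted p = 0.00568), and was called in all 16 alternatives. Lmo2 exceeded 69.1% to 85.6% of the negative controls, with 0 arrays above their 95th percentile. The other 9 had 1 higher and 0 lower at an unadjusted p under 0.05, and 3 of the 10 genes lay below the negative control median on all arrays.

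**Figure D4:**
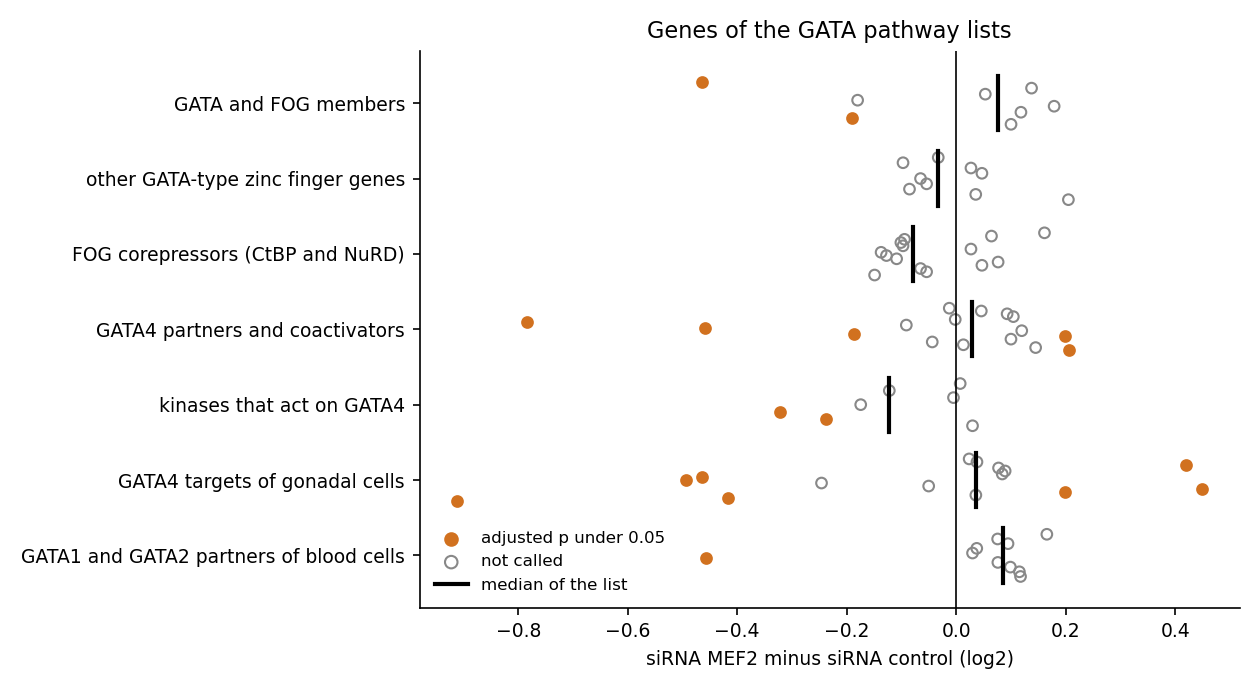
Difference in log2 signal (x axis), siRNA MEF2 minus siRNA control, of every measured gene of the GATA and FOG members and of 6 lists of related genes (y axis), with called genes in orange, other genes as open circles and the median of each list as a black line. The lists of other GATA-type genes and FOG corepressors hold no called gene, and Gata1 and Lmo2 both fell by 0.46.

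Gata1 is known from red cells and Sertoli cells, so markers of these and of other cells were read beside it. The erythroid markers Hbb-b1, Alas2 and Klf1 were below the negative control median on all arrays, while Epor exceeded 78.6% to 84.4% of the negative controls. None of these 4 was called by limma (0 also at an unadjusted p under 0.05). Of 6 Sertoli cell markers 1 was called, Rhox5, which rose by 0.32, and Fshr was below the negative control median on all arrays. The summed linear signal was 2740 to 2983 in the control samples and 3035 to 3273 in siRNA MEF2. Such a sum follows its brightest probe sets, here Rhox5 (mean 10.30 in control and 10.62 in siRNA MEF2) and Sox9 (9.78 and 9.81). Sums of the macrophage markers were 649 to 736 against 571 to 592 (1 of 5 higher, and Cd68 1.45-fold lower), with 4 below the negative control median on all arrays. Sums of the endothelial markers were 4792 to 5431 against 3906 to 4026 (1 of 4 higher, and Cdh5 1.34-fold lower). There 3 lay below that median and Cdh5 above the 95th percentile on all arrays. Cd68 and Cdh5 are the brightest of their lists and weigh most in these sums. Cdh5 had a control mean of 12.26, while Pecam1, Kdr and Tek had 7.02, 6.28 and 6.27. The germ cell markers summed to 527 to 576 against 622 to 665 (2 of 5 higher, 3 below the median). The T cell markers summed to 403 to 436 against 446 to 479 (1 of 4 higher, 3 below the median). Of all genes 20.7% were called, 9.04% higher and 11.7% lower. Dim genes were called higher more often, with 11.4% in decile 3 and 16.6% in decile 5. The markers were not set beside their own signal deciles. All samples were of the MA-10 line, so these markers need not stand for cells of other types. In a bulk sample fewer cells of a type and less RNA per cell cannot be told apart, and the part of these markers in the fall of Gata1 was not tested.

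**Figure D5:**
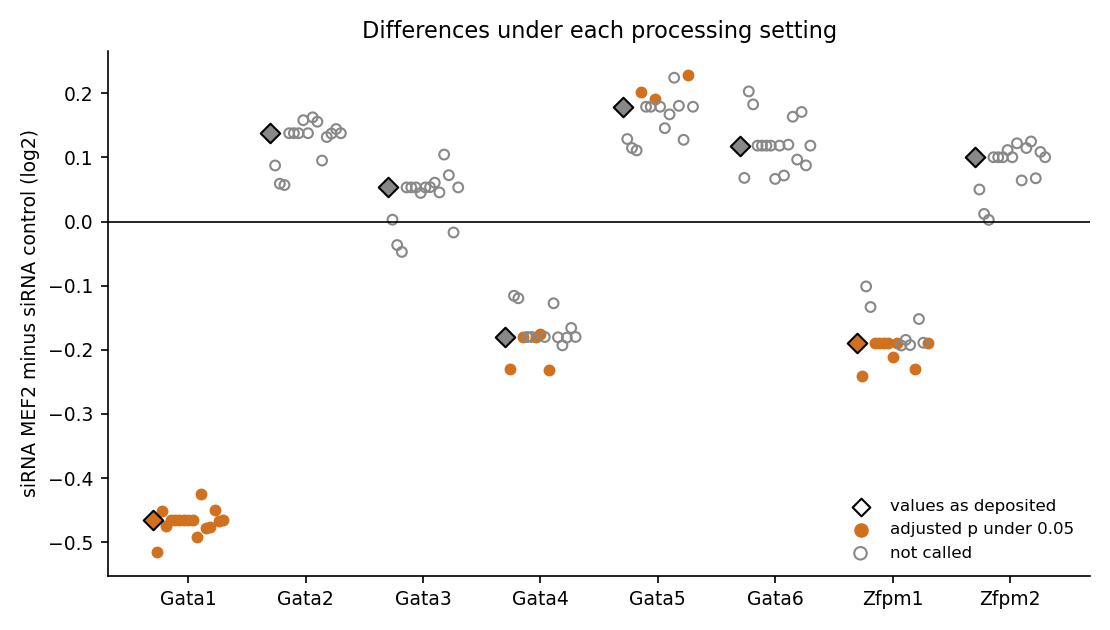
Difference in log2 signal, siRNA MEF2 minus siRNA control (y axis), of the 8 members (x axis) with the deposited values (diamonds) and under each processing alternative (circles), filled in orange where limma's adjusted p was under 0.05. The Gata1 points are all called and lie between -0.51 and -0.42, whereas the Zfpm1, Gata4 and Gata5 points are partly called and the Gata3 points cross zero.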

How the data were processed

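Log2 signals of 6 arrays were deposited by the authors; per the file headers they come from gene-level RMA, and RMA and Partek appear, with no version, in the submitters' processing notes. RMA corrects background, gives all arrays 1 distribution and summarises probes, so a shift shared by most genes cannot be seen. The annotated table and the series matrix held the same 35557 probe sets on 6 arrays (largest difference 0.0). Precision is limited by the number of arrays.

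Probe sets were named from deposited accessions and symbols through a RefSeq table (GRCm38.p6, names only): 25521 were named and covered 22091 genes, each read by its probe set with the highest mean. Differences were tested with limma 3.58.1 (lmFit, eBayes, R 4.3.3), without covariates or a signal filter, and the procedure was tested on simulated data. There 50 of 67 genes with a log2 change of 0.3, the smallest size tried, were recovered (74.6%). Smaller changes, such as the differences of the uncalled members, were not simulated. Named genes were the members, the targeted genes, up to 4 called genes of smallest p per list, and the 3 genes nearest to Gata4 and to Gata6. Members and lists were chosen with earlier results of these data known. List extremes, markers and genes said to be chosen so were named after their values were seen. Insl3 and Rbbp4, without a named probe set, were not analysed here. One fixed erythroid marker is not reported here. Antigenomic controls are not named apart in the table, so all 5222 negative controls were used. Alternatives were median centring, quantile normalization, cyclic loess, a signal filter, other handling of probe sets, a variance trend and array weights. Also run were a replicate block, leaving out each array, and the series matrix. The series matrix holds the same values, so every count of alternatives includes a repeat of the main fit.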

Additional observations from a re-analysis of the deposited data

How the results depend on the processing

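Gata1 kept its call in all 16 alternatives, and Gata2, Gata6 and Zfpm2 stayed uncalled in the same direction in all that tested them. The number of members called, 2 with the deposited values, was 1 after quantile normalization and after cyclic loess, 4 with array weights, and 1 to 2 without any 1 array; it was 1 without siRNA control replicate 2, siRNA control replicate 3 or siRNA MEF2 replicate 2, where Gata1 alone remained. Zfpm1 lost its call after quantile normalization (-0.10) and cyclic loess (-0.13) and differed by -0.23 to -0.15 without any 1 array. Gata4 gained a call after median centring (-0.23), over genes above the median signal (-0.18), with a variance trend and robust estimation (-0.18) and with array weights (-0.18), and differed by -0.23 to -0.13 without any 1 array. Gata5 gained one as the mean over probe sets (0.20) and with array weights (0.19), and differed by 0.13 to 0.23 without any 1 array. Gata3, never called, turned to -0.037 after quantile normalization, -0.047 after cyclic loess and -0.017 without siRNA MEF2 replicate 3 (-0.017 to 0.10 without any 1 array). The cause of these changes was not tested. With the median of the negative controls as reference 5 members, in place of 1, were above it. Over all genes 4579 were called (1997 higher, 2582 lower), and 2482 to 4282 without any 1 array, with the lowest counts without siRNA MEF2 replicate 2 (2482), siRNA control replicate 2 (2521) and siRNA control replicate 3 (2654). Median centring moved the split to 825 higher and 3599 lower. The 6 lists held 14 called genes of 65, and 9 to 16 without any 1 array, 9 without siRNA control replicate 2. The 14 include Mef2a and Mef2d, which the siRNA itself targets.

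Samples of the same replicate number deviated together at 0.113, 0.0763 and 0.0961 (correlation across genes of deviations from group means). Samples of different numbers gave -0.0868 to -0.0056, so each sample correlated best with its own number. No label says that the number marks a shared culture, and the main fit did not take the numbers as pairs. Whether the numbers mark shared batches is not known. With the replicate block 5318 genes were called and 2 members, Gata1 (difference -0.46, adjusted p = 9.14e-05) and Zfpm1 (-0.19, adjusted p = 0.0396).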
